A study of Mus musculus with 4 samples.

Results

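The 40 genes described here carry out or mark the response of cells to protein misfolding in the endoplasmic reticulum (ER) and to a shortage of amino acids. They were taken by symbol and fill 41 of the 54532 rows of the count table. Ddit3 has 2 rows, and the second, a short overlapping model, had 0 reads in every library, so the other was used. All 40 genes passed the filter on low counts, so 40 of 14963 tested genes are members. They fall into 14 ER chaperones and folding enzymes, 4 genes of ER-associated degradation, 8 stress sensors and transcription factors, 5 stress effectors downstream of ATF4, 6 genes of amino acid synthesis and 3 mitochondrial one-carbon enzymes.

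RNA came from bone marrow mesenchymal stem cells (BMSCs), the marrow stromal cells that can form bone, fat and cartilage, of C57BL/6J mice aged 1 month. The 2 libraries labelled rhebCKO were from mice with floxed Rheb alleles and a Cre transgene (Ucp1-cre; rhebFL/FL), and the 2 control libraries were from littermates with floxed alleles alone (rhebFL/FL). The Ucp1 promoter drives Cre in brown adipocytes, a cell type other than the one profiled, and the comparison asks how marrow stromal cells differ when Rheb is targeted there. Each library came from 1 of 4 mice, all labelled male, and the sources used here do not say whether the cells were cultured before extraction. Rheb encodes the GTPase that activates the kinase complex mTORC1, which is known to raise ATF4 translation.

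Misfolded proteins in the ER are sensed by 3 membrane proteins encoded by Atf6, Ern1 and Eif2ak3. ATF6 and the spliced form of XBP1, made by the IRE1 enzyme that Ern1 encodes, switch on chaperone and degradation genes. PERK, encoded by Eif2ak3, and GCN2, encoded by Eif2ak4, phosphorylate eIF2alpha, which favours translation of ATF4, a factor that drives genes of amino acid synthesis, one-carbon metabolism and stress signalling. Osteoblasts and plasma cells, both heavy secretors, use the chaperone arm strongly. Gene counts show neither Xbp1 splicing nor the amount of ATF4 protein.

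Total counts ran from 17425669 to 19001878 per library, and the members took 0.961% and 0.915% of all counts in rhebCKO replicates 1 and 2, against 1.01% and 0.895% in control replicates 1 and 2. Rheb was not lower in the libraries labelled rhebCKO, with 129 and 121 CPM (counts scaled to a common library total) against 89.6 and 81.4 CPM in control libraries. A deletion in brown adipocytes cannot be checked in these cells, and each direction below rests on the labels. All 12 marrow stromal markers had reads in every library, but so had all 10 macrophage markers, whose summed level was 9085 and 11388 CPM in rhebCKO libraries and 11769 and 8391 CPM in control libraries. Of the 6 brown adipocyte markers, Cidea had no read and Ucp1 had 1 read in all 4 libraries, and Dio2 and Adipoq had reads in every library. That list summed to 5.99 and 7.998 CPM in rhebCKO libraries and 5.01 and 3.21 CPM in control libraries. Sex-linked transcripts went with replicate number, Xist being high in both replicates 1, against the male label, and Y-linked genes being read in both replicates 2. Values within each replicate number are therefore given beside the group values. In such bulk RNA, fewer cells of a type and less RNA per cell cannot be told apart.

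Known response elements of both arms were found in some of the members' promoters. RefSeq windows of GRCm38.p6, from 250 bases before to 50 bases after a gene's start, were held for 37 of the 40 genes, in 40 windows. The ER stress response element (ERSE), searched as CCAAT, 9 bases of any kind and CCACG, and bound by ATF6 with NF-Y, was found in 7 of 12 chaperone genes with a window (Hspa5, Hsp90b1, Calr, Canx, Pdia6, Dnajc3 and Creld2) and in Syvn1, against 0.119% of all 32851 windows. The element ERSE-II, searched as ATTGG, 1 base of any kind and CCACG, was found in Herpud1 and Dnajb11, against 0.0365% of all windows. The C/EBP-ATF response element (CARE) that ATF4 binds, searched as TGATGNAA, was found in Trib3, Chac1, Nupr1, Asns, Pycr1 and Herpud1, against 3.97% of all windows. The XBP1 motif TGACGTGG was in 0 member windows, against 0.676% of all. Both strands were searched. ERSE and ERSE-II share the letters CCACG, but no matches of different motifs overlapped in a member. Herpud1, which holds ERSE-II and CARE, was the only member with matches of more than 1 kind. Each stretch below is written on the strand that spells the motif, with the motif in capitals, to show the letters matched in members of either arm. A match describes the letters and is not a measured binding site.
Hspa5, chr2:34772020-34772048, plus strand, ERSE: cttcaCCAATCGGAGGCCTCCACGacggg
Hsp90b1, chr10:86705528-86705556, plus strand, ERSE: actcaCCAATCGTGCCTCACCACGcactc
Hsp90b1, chr10:86705633-86705661, minus strand, ERSE: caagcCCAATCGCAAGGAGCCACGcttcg
Calr, chr8:84847070-84847098, plus strand, ERSE: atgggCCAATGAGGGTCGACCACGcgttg
Canx, chr11:50325795-50325823, minus strand, ERSE: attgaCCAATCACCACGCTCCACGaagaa
Creld2, chr15:88819515-88819543, minus strand, ERSE: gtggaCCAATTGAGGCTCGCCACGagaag
Herpud1, chr8:94386368-94386396, plus strand, ERSE-II: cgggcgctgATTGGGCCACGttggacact
Asns, chr6:7693214-7693243, minus strand, CARE: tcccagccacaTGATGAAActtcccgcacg
Chac1, chr2:119351038-119351067, minus strand, CARE: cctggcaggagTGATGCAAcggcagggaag
Nupr1, chr7:126625562-126625591, plus strand, CARE: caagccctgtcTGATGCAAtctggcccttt
Pycr1, chr11:120643833-120643862, minus strand, CARE: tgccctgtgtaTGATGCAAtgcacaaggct
Read in the direction of the gene, whichever strand spells the motif, the ERSE of Hspa5 began 65 bases before the start. The pair in Hsp90b1 began 107 and 212 bases before it. Read in the same way, the CARE of Asns began 23 bases before the start, those of Pycr1, Nupr1 and Chac1 103, 110 and 193 bases before it. The CARE of Trib3 and the ERSE-II of Dnajb11, not printed here, lay after the start.

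Neither arm of the response differed detectably between the groups. By edgeR's quasi-likelihood test with Benjamini-Hochberg adjustment, 0 of 40 members passed an adjusted p of 0.05, with percent called over all tested genes at 0%. At an unadjusted p under 0.05 there were again 0 members, against 1.86% of all tested genes (0.762% higher and 1.1% lower). DESeq2 and limma-voom likewise had 0 members at either threshold, against 1.56% and 1.66% of all tested genes at the unadjusted one. Over all tested genes 23 passed the adjusted threshold by DESeq2, and by edgeR 196 (1.25%) passed without control replicate 1 and 66 (0.423%) without control replicate 2, with 0 members among them each time. Of the members 18 had higher and 22 lower values, with a median log2 fold change (rhebCKO over control) of -0.02. Over all tested genes 48.8% had higher and 51.2% lower values, with a median of -0.01. Within both replicate numbers 13 members were lower and 6 higher in rhebCKO libraries, as were 25.4% and 21.9% of all tested genes. The fold changes ran from -0.35 (Trib3) to 0.21 (Atf6), with standard errors of 0.19 to 0.35, which follow the ± sign throughout. The 95% interval of every member lay within a 2-fold change either way, as it did for 64.6% of all tested genes. That share includes many genes read less than any member, as 6102 of 14963 reached the lowest member mean of 32.7 CPM. Each member interval also held 0, and differences within it were not resolved. With 2 libraries per group an exact permutation test cannot go below p = 0.333, and p-values rest on the spread shared across genes.

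**Figure D1:**
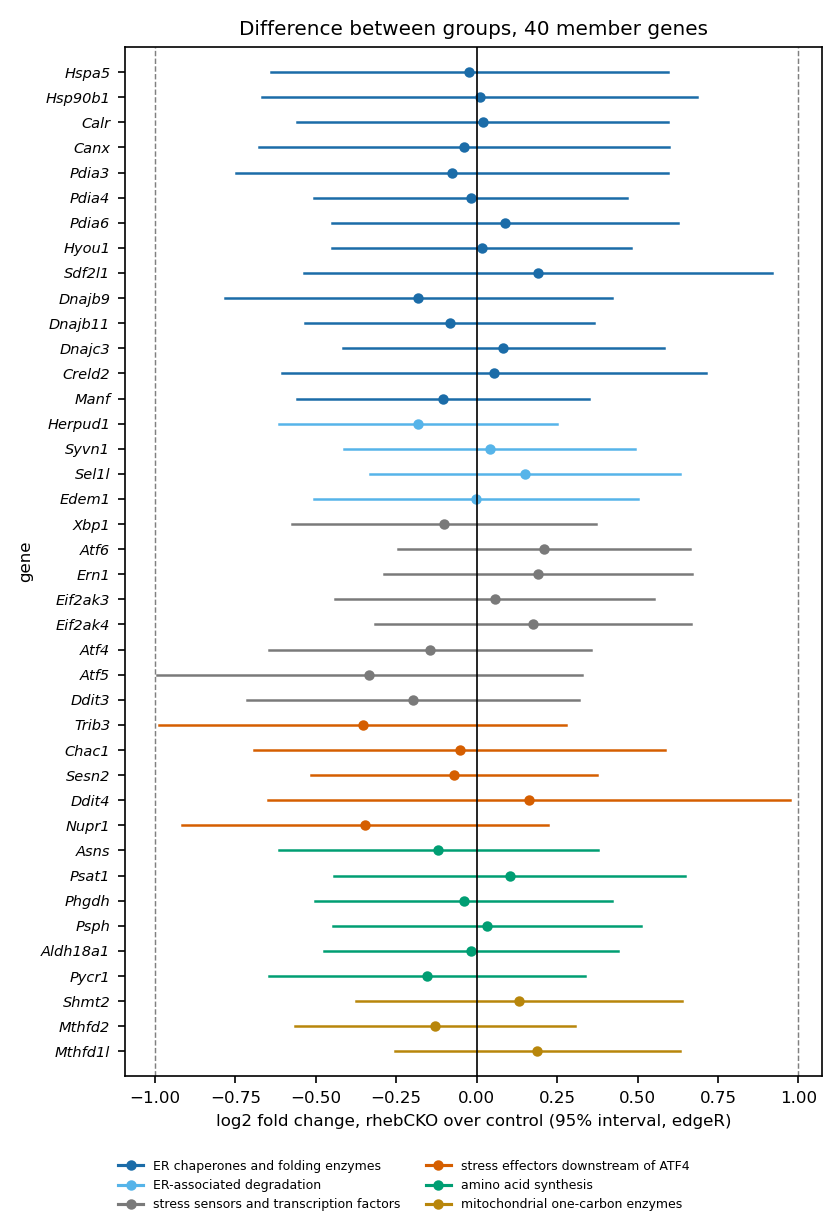
Log2 fold change of each member (point, x axis, rhebCKO over control) with its 95% interval from edgeR (line), n = 2 libraries per group, coloured by role class, one gene per row. Every interval crosses 0, and every one lies between the dashed lines at -1 and 1.

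ER chaperones were the 4 most abundant members, and the fold changes of the class centred near 0. On a scale of CPM per kilobase of exon, averaged over 4 libraries, the highest were Calr (352), Pdia3 (296), Hspa5 (289.6) and Hsp90b1 (195), and the lowest chaperone gene was Dnajb9 (16.3). The lowest of all members were Eif2ak4 (5.30), Ern1 (6.26) and Eif2ak3 (6.40), so these sensors stood below the chaperones on that scale. Among the 14 chaperone and folding genes 7 had higher and 7 lower values, with a median log2 fold change of -0.00 (range -0.18 to 0.19). Their summed level was 6269.9 and 5753 CPM in rhebCKO replicates 1 and 2, against 6761 and 5355 CPM in control replicates 1 and 2, so the groups overlapped.

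Hspa5, which encodes BiP, the ER Hsp70 chaperone that holds the sensors inactive, had 1269.9 and 1160.2 CPM in rhebCKO replicates 1 and 2, against 1398 and 1071 CPM in control replicates 1 and 2. Both rhebCKO libraries lay between the control ones (log2 fold change -0.02 ± 0.27, edgeR adjusted p = 1.00). Calr, encoding calreticulin, a lectin chaperone of glycoproteins, had 979.6 and 1063 CPM in rhebCKO libraries and 1079 and 938 CPM in control libraries, which again enclosed them. Manf, a small ER protein released under stress, had 112 and 124 CPM in rhebCKO libraries and 135 and 118 CPM in control libraries. The fold change (-0.10 ± 0.20 on the log2 scale, edgeR adjusted p = 1.00) had a different sign within replicate 1 (-0.27) and within replicate 2 (0.07).

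Sdf2l1, a BiP cofactor, had the widest spread of the chaperone genes. It had 26.6 and 50.6 CPM in rhebCKO replicates 1 and 2, against 34.4 and 33.3 CPM in control libraries. The rhebCKO libraries were thus the lowest and the highest of the 4, with log2 ratios of -0.37 within replicate 1 and 0.60 within replicate 2 (log2 fold change 0.19 ± 0.31, edgeR adjusted p = 1.00). Dnajb9, the J-domain protein that represses IRE1, had 45.2 and 32.5 CPM in rhebCKO libraries and 50.4 and 37.8 CPM in control libraries. It was lower within both replicate numbers (log2 ratios -0.16 and -0.22), yet the groups overlapped because both replicates 1 were above both replicates 2. Of the 9 plasma cell markers 8 had reads in every library. All 9 summed to 362 and 308 CPM in rhebCKO libraries and 954 and 627 CPM in control libraries. Sdc1 made up most of the rhebCKO sums, with 223 and 239 CPM, against 220 and 293 CPM in control libraries. Ighm had 54.9 and 23.2 CPM in rhebCKO libraries and 364 and 111 CPM in control libraries. Of the 8 tested markers 7 had lower and 1 higher values in rhebCKO libraries. The part of these cells in the chaperone values was not tested.

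The degradation genes were split evenly, with 2 of 4 higher. Herpud1, which organises the degradation complex, had 104 and 100.4 CPM in rhebCKO libraries and 119.9 and 111 CPM in control libraries, so the groups did not overlap (log2 fold change -0.18 ± 0.19, edgeR adjusted p = 1.00). Sel1l, the adaptor of the ubiquitin ligase in that complex, had 278 and 246 CPM in rhebCKO libraries and 239 and 234 CPM in control libraries, without overlap and in the other direction (log2 fold change 0.15 ± 0.21). Syvn1, the ligase itself, had 62.9 and 72.4 CPM in rhebCKO libraries and 63.9 and 67.6 CPM in control libraries (log2 fold change 0.04 ± 0.20).

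Among the sensors and transcription factors, Atf6, Ern1, Eif2ak3 and Eif2ak4 had higher values and Xbp1, Atf4, Atf5 and Ddit3 lower ones in rhebCKO libraries. Atf6 had 115 and 116 CPM in rhebCKO libraries, against 109 and 90.7 CPM in control libraries (log2 fold change 0.21 ± 0.20, edgeR adjusted p = 1.00). Ern1 had 51.0 and 58.1 CPM in rhebCKO libraries and 51.0 and 44.5 CPM in control libraries, a log2 ratio of 0.00 within replicate 1 and 0.38 within replicate 2. For both genes the groups were separated, Ern1 only at the margin, and control replicate 2 was the lowest library. Over all members the groups did not overlap for 5 higher genes (Sel1l, Atf6, Ern1, Eif2ak4 and Mthfd1l) and 3 lower ones (Herpud1, Ddit3 and Mthfd2), where 10.8% and 11.3% of all tested genes were so placed.

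Atf4 itself had 283 and 309 CPM in rhebCKO libraries and 309 and 346 CPM in control libraries, with log2 ratios of -0.13 and -0.16 within replicates 1 and 2 (log2 fold change -0.15 ± 0.22). Atf5, a related factor translated under the same stress, had 255 and 312 CPM in rhebCKO libraries and 272 and 444 CPM in control libraries. Control replicate 2 was the highest library, and rhebCKO replicate 2 was also above both replicates 1. The fold change (-0.33 ± 0.29 on the log2 scale, edgeR adjusted p = 1.00) was 0.08 without control replicate 2. Ddit3, which encodes the pro-death factor CHOP, had 39.0 and 38.8 CPM in rhebCKO libraries and 39.2 and 49.96 CPM in control libraries, again with control replicate 2 apart (log2 fold change -0.20, and 0.00 without that library). Exons of Ddit3 and Mars share 68 bases on opposite strands and those of Atf5 and Nup62 share 82, and the library kit does not mark strand.

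The stress effectors downstream of ATF4 spread most between libraries of the 6 classes, and control replicate 2 was the highest library for most of them. Of the 5 genes 4 had lower values in rhebCKO libraries (median log2 fold change -0.07), and these 4 were highest in control replicate 2, as were 27.2% of all tested genes. Trib3, a pseudokinase that dampens the response, had 59.4 and 72.0 CPM in rhebCKO libraries, against 62.7 and 105 CPM in control libraries. Nupr1, a small stress-induced chromatin protein, had 70.8 and 75.8 CPM in rhebCKO libraries, against 73.0 and 113 CPM in control libraries. In both genes control replicate 2 stood highest, and rhebCKO replicate 2 was also above both replicates 1. The log2 ratio of rhebCKO replicate 2 to rhebCKO replicate 1 was 0.28 for Trib3 and 0.10 for Nupr1.

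Their log2 fold changes were -0.35 ± 0.27 for Trib3 and -0.35 ± 0.25 for Nupr1, and edgeR's adjusted p was 1.00 for both. Replicates 1 alone gave a log2 ratio of -0.08 for Trib3 and -0.04 for Nupr1, and replicates 2 alone gave -0.55 for Trib3 and -0.58 for Nupr1. Leaving out control replicate 2 turned the direction of both, to 0.08 and 0.02. Leaving out control replicate 1 kept both lower in rhebCKO libraries, with larger fold changes than with all 4 libraries.

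Ddit4, which encodes REDD1, an inhibitor of mTORC1, was the effector with a higher value. It had 60.9 and 120.1 CPM in rhebCKO replicates 1 and 2, against 62.2 and 99.5 CPM in control replicates 1 and 2. Both replicates 2 were above both replicates 1, and the groups overlapped (log2 fold change 0.16 ± 0.35, edgeR adjusted p = 1.00). Chac1, which degrades glutathione, had 32.2 and 43.4 CPM in rhebCKO libraries and 31.6 and 46.9 CPM in control libraries, again with both replicates 2 above both replicates 1. Sesn2, the leucine sensor that restrains mTORC1, varied least, with 71.1 and 76.3 CPM in rhebCKO libraries and 72.4 and 82.4 CPM in control libraries.

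Sums of some cell type marker lists were also highest or lowest in control replicate 2, though not every marker was. The plasma cell sum, given above, was highest in control replicate 1. The 9 B cell markers summed to 112.5 and 89.6 CPM in rhebCKO libraries and 113.8 and 107 CPM in control libraries, with control replicate 2 at neither end. The 10 osteoblast markers, of which 9 had reads in every library, summed to 13087 and 14781 CPM in rhebCKO libraries and 12774 and 17444 CPM in control libraries. That sum is mostly Col1a1, with 11709.7 and 13382 CPM in rhebCKO libraries and 10989.7 and 16304 CPM in control libraries. Alpl, at 24.5 and 20.4 CPM in rhebCKO libraries and 34.7 and 122 CPM in control libraries, was highest in control replicate 2. So were Col1a1, Ibsp, Sp7, Runx2 and Phex. Spp1, at 1289 and 1329 CPM in rhebCKO libraries and 1683 and 867 CPM in control libraries, was lowest there. Bglap, Bglap2 and Dmp1 had too few reads to test. Summed proliferation markers were 944 and 725 CPM in rhebCKO libraries and 832 and 522 CPM in control libraries, and summed stromal markers were 11519.5 and 11691 CPM in rhebCKO libraries and 11048 and 15848 CPM in control libraries. Col1a2 made up most of the stromal sum. Of the other stromal markers, Cxcl12, Kitl, Pdgfra, Pdgfrb and Thy1 were highest in control replicate 2. Eng, Vcam1 and Ly6a were lowest there, and Lepr, Nt5e and Prrx1 were at neither end. The 9 neutrophil markers summed to 2061 and 2488 CPM in rhebCKO libraries and 2980.0 and 1003 CPM in control libraries. Control replicate 2 was thus at one end for the osteoblast, proliferation, stromal and neutrophil sums. It was also the lowest library for the macrophage and brown adipocyte sums given above. Of all tested genes, 27.2% were highest and 26.5% lowest in that library. The part of cell makeup in the Trib3, Nupr1 and Atf5 values was not tested.

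**Figure D2:**
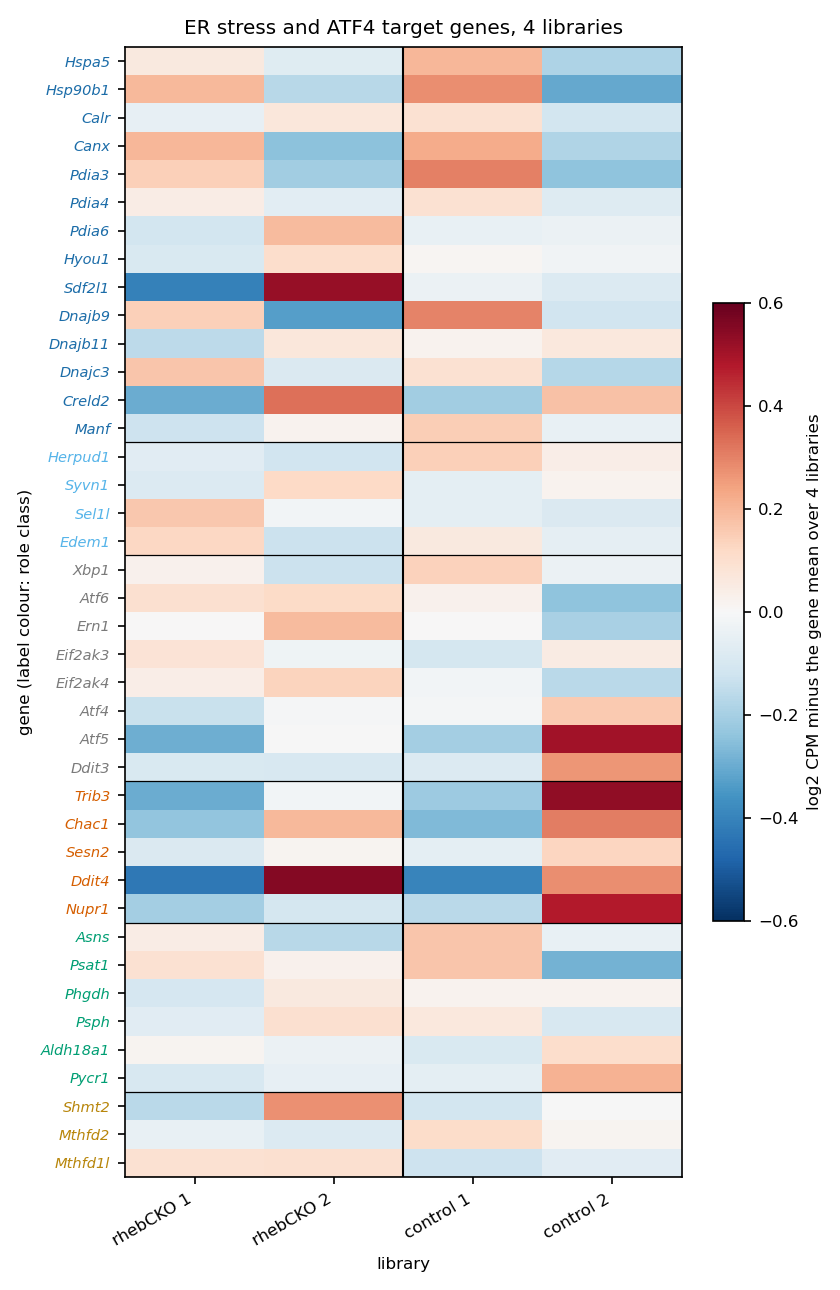
Log2 CPM of each of the 40 genes minus its mean over the 4 libraries (colour), with libraries in columns, genes in rows and horizontal lines between role classes. Atf5, Trib3 and Nupr1 are darkest red in control 2, and Ddit4 and Chac1 are red in both replicates 2 and blue in both replicates 1.

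Genes of amino acid synthesis and one-carbon metabolism varied little between libraries. The difference between the highest and lowest of the 4 libraries had a median of 0.25 (log2) over the 6 synthesis genes and 0.22 over the 3 one-carbon genes, against 0.25 over the 4 degradation genes, 0.33 over the sensors and factors, 0.36 over the chaperones and 0.68 over the stress effectors. For the 6102 tested genes with a mean of at least 32.7 CPM, the lowest member mean, it was 0.42. In the synthesis class 2 of 6 genes had higher values in rhebCKO libraries (median log2 fold change -0.03), and in the one-carbon class 2 of 3 did (median 0.13).

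Asns, the asparagine synthetase gene, had 232 and 200.4 CPM in rhebCKO libraries and 252 and 218 CPM in control libraries, with a log2 ratio of -0.12 within each replicate number (log2 fold change -0.12 ± 0.21, edgeR adjusted p = 1.00). Psat1, of the serine pathway, had 286 and 273 CPM in rhebCKO libraries, against 300.3 and 220.0 CPM in control libraries that enclosed them. Pycr1, of proline synthesis, had 42.3 and 43.7 CPM in rhebCKO libraries and 43.4 and 52.3 CPM in control libraries, with control replicate 2 again the highest. The other serine and proline genes, Phgdh, Psph and Aldh18a1, had log2 fold changes between -0.04 and 0.03. Psph exons share 452 bases, 10.4% of their length, with the more strongly read gene Cct6a on the other strand, so its counts are uncertain.

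The 3 mitochondrial one-carbon enzymes had fold changes of both signs. Shmt2, which splits serine to feed the folate pool, had 122 and 165 CPM in rhebCKO libraries and 127 and 136 CPM in control libraries. Mthfd2, which oxidises the folate unit, had 122 and 119 CPM in rhebCKO libraries, below 136 and 127 CPM in control libraries (log2 fold change -0.13 ± 0.19). Mthfd1l, which releases formate, had 62.7 and 63.0 CPM in rhebCKO libraries, above 54.1 and 56.2 CPM in control libraries (log2 fold change 0.19 ± 0.19). Neither separated pair passed edgeR's test (adjusted p = 1.00 for both).

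Set side by side, chaperones and the 9 amino acid and one-carbon genes had median log2 fold changes of -0.00 and -0.02. The medians differed in sign between replicate numbers for chaperones, with -0.12 within replicate 1 and 0.10 within replicate 2, and for the 9 metabolic genes, with -0.07 and 0.04. By promoter, all 6 genes with CARE had lower values in rhebCKO libraries (median -0.17), where 51.0% of 308 other tested genes with the motif did. Without control replicate 2 this was 2 of 6 (median 0.01). Of the 10 genes with ERSE or ERSE-II 4 had lower values (median 0.01), where 58.8% of 17 other tested genes with either motif did. Without control replicate 2 this was 7 of 10 (median -0.06).

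**Figure D3:**
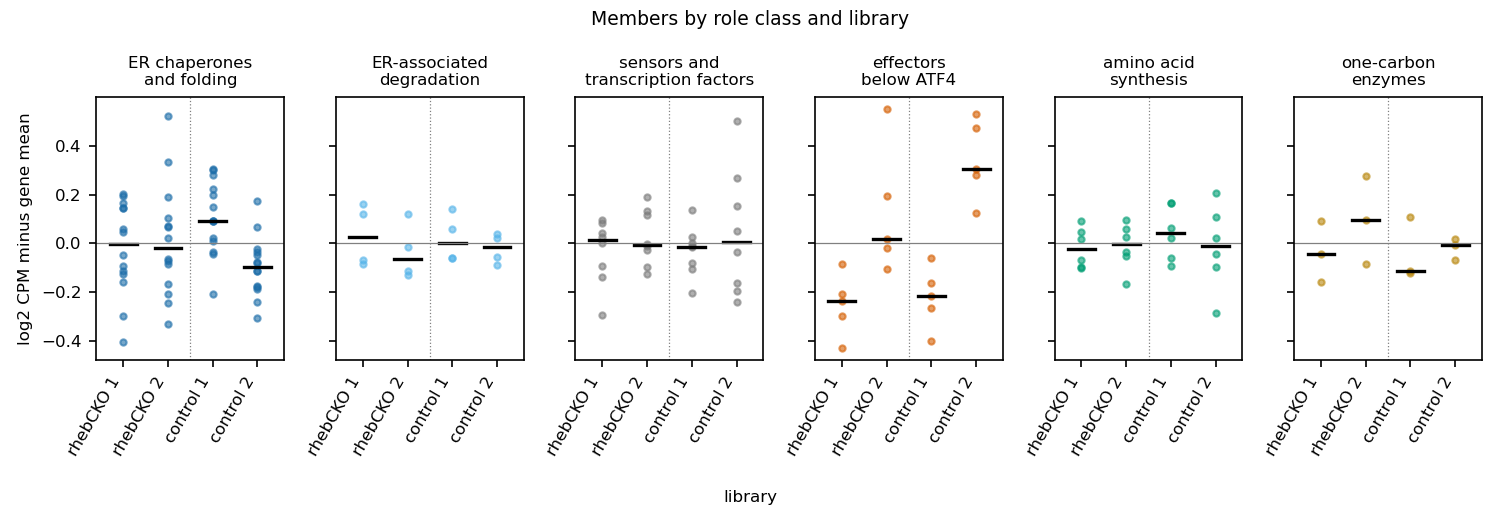
Log2 CPM minus the gene mean over 4 libraries (y axis) for each member (points) by library (x axis) and role class (panels), with the class median as a bar. The effector median is -0.24 in rhebCKO 1 and 0.02 in rhebCKO 2, against -0.22 in control 1 and 0.31 in control 2, while the synthesis medians stay between -0.02 and 0.04.

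Several members had different levels in the 2 replicate numbers of both groups. Of the 4 libraries, rhebCKO replicate 1 was the highest for 4 members, rhebCKO replicate 2 for 14, control replicate 1 for 13 and control replicate 2 for 9, against 22.8%, 26.4%, 23.6% and 27.2% of all tested genes. The lowest library was rhebCKO replicate 1 for 16 members, against 25.2% of all tested genes. In the fit with both terms, 0 of 40 members passed the adjusted p for replicate 2 against replicate 1, with percent called over all tested genes at 0.0134% higher and 0.00668% lower. At an unadjusted p under 0.05, 5 members were higher in replicates 2 (Ddit4, Trib3, Creld2, Chac1 and Atf5) and 4 lower (Hsp90b1, Pdia3, Dnajb9 and Canx), named here after their values were seen. For all tested genes the shares were 8.15% and 7.26%, near enough to the members' counts that these are not read as particular to them. All 5 stress effectors lay higher in both replicates 2 than in both replicates 1, as did 26.5% of all tested genes, with a class median of 0.50. Of the chaperones 7 of 14 lay lower in both replicates 2, against 26.0% of all tested genes, with a class median of -0.09.

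Ddit4 differed most, with 120.1 and 99.5 CPM in rhebCKO and control replicates 2, against 60.9 and 62.2 CPM in the corresponding replicates 1 (log2 fold change 0.83 ± 0.14, edgeR adjusted p = 0.298). Hsp90b1, encoding the ER Hsp90 chaperone GRP94, had 689.8 and 626 CPM in rhebCKO and control replicates 2, against 887 and 940.4 CPM in replicates 1 (log2 fold change -0.47 ± 0.16, edgeR adjusted p = 0.308). Pdia3, a disulfide isomerase that works with the lectin chaperones, and Canx, the membrane-bound lectin calnexin, had log2 fold changes of -0.45 and -0.42 in the same direction. Creld2, another disulfide isomerase, went the other way with 40.5 and 36.3 CPM in replicates 2, against 26.1 and 27.8 CPM in replicates 1 (log2 fold change 0.51, adjusted p = 0.298).

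**Figure D4:**
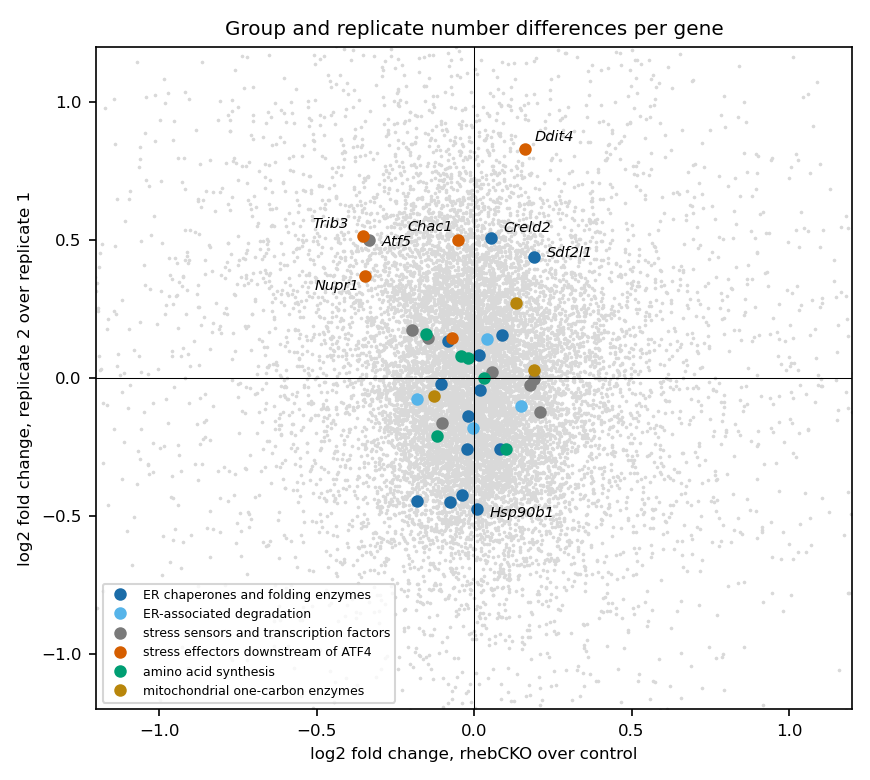
Log2 fold change of rhebCKO over control (x axis) against that of replicate 2 over replicate 1 (y axis) for each member (coloured points) and all tested genes (grey, of which 615 lie outside the drawn range). Ddit4, Trib3, Atf5, Chac1 and Creld2 lie high, and the lowest member is Hsp90b1 at -0.47.

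GC content moved with replicate number over all genes. With genes sorted into 4 equal bins by GC content of the longest transcript, from lowest to highest, the median log2 fold change of replicate 2 over replicate 1 was -0.31, -0.11, 0.09 and 0.34. The same medians between the groups stayed between -0.01 and -0.00. By exon length, from the shortest to the longest of 4 bins, the median between the groups was -0.06, -0.04, -0.00 and 0.06, and that of replicate 2 over replicate 1 was 0.14, 0.04, -0.03 and -0.08. Among the members, Hsp90b1, Canx, Dnajb9 and Pdia3 had 42.1%, 42.2%, 40.6% and 46.9% GC, and Ddit4, Trib3, Chac1, Creld2 and Atf5 had 57.9%, 58.2%, 57.4%, 54.8% and 61.7%. The 5 higher genes were also shorter, with 1366 to 2125 bases of exon against 2549 to 4693 bases for the 4 lower ones.

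With per-library trends in exon length and GC content removed, an alternative chosen after seeing the data, the replicate difference of the effectors had a median of 0.11 in place of 0.50. That of Atf5 was -0.05 in place of 0.50, that of Hsp90b1 -0.17 in place of -0.47 and that of Pdia3 -0.32 in place of -0.45. For Nupr1, at 49.9% GC, it was 0.36 in place of 0.37, and for Ddit4 0.42 in place of 0.83. Other members moved away from 0 or took the other sign, as Ddit3 (0.28 in place of 0.17), Xbp1 (-0.28 in place of -0.16), Herpud1 (-0.23 in place of -0.07), Phgdh (-0.26 in place of 0.08) and Sesn2 (-0.23 in place of 0.14). The synthesis median was -0.10 in place of 0.04. The class medians between the groups moved little, to 0.02 for chaperones and -0.04 for effectors.

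Wider lists of the same pathways, chosen with earlier results of these data known, gave no call either. Of 37 other genes of ER translocation, glycosylation and folding, 9 had higher and 28 lower values in rhebCKO libraries (median log2 fold change -0.08). Of all tested genes 48.8% had higher and 51.2% lower values. Within both replicate numbers 17 of the 37 were lower and 3 higher, as were 25.4% and 21.9% of all tested genes. By edgeR 0 of the 37 had an unadjusted p under 0.05, against 1.86% of all tested genes. Of 27 tested genes of degradation and sensor processing, 9 had higher and 18 lower values (median -0.03), again with 0. Derl3 was the sole gene of that list with too few reads to test. Of 38 other ATF4 targets, among them amino acid transporters and tRNA synthetases, 23 had higher and 15 lower values (median 0.03), with 0 at that p. Since no gene of these lists reached that p, none is named with its values.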

How the data were processed

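The authors deposited 1 table of whole-number read counts per gene for the 4 libraries, with the summed exon length of each gene. Trimmomatic, HISAT2, featureCounts and the build mm10 are named in the submitters' processing notes without versions. The annotation release and the treatment of reads with several matches were not given in the sources used here. TruSeq v2 libraries, per the labels' protocols, carry no strand mark.

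Counts were fitted across all genes with edgeR 4.0.16 (quasi-likelihood test, TMM scaling, filterByExpr, Benjamini-Hochberg threshold 0.05) in R 4.3.3, all 4 libraries in 1 fit by group and, for replicate number, in 1 fit with both terms. The scripts were tested on simulated data. CPM values used TMM-scaled totals, and log2 CPM a prior count of 2. DESeq2 1.42.0 and limma 3.58.1 (voom), other scalings and filters, the replicate block and leaving out each library were alternatives. GC content came from the longest GENCODE M21 transcript, and the trend alternative used splines with 5 degrees of freedom.

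The members, lists and tests were chosen with earlier results of these data known. Values in every library were given for the members with the 3 smallest unadjusted p and the highest CPM per kilobase in each role class. Hspa5, Hsp90b1, Canx, Pdia3, Creld2, Atf4, Ddit3, Chac1, Sesn2 and the single markers were added after their values were seen. The libraries of a group came from separate mice, per the series' design text.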

Additional observations from a re-analysis of the deposited data

How the results depend on the processing

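The 40 members had 0 calls at the adjusted threshold under every alternative with a test. The removal of the length and GC trend gives values with no test. Over all tested genes edgeR called 0 genes, DESeq2 23, and edgeR with a library left out 0 to 196 (196 without control replicate 1, 66 without control replicate 2, where the lone control library is assumed to vary like the rhebCKO ones). The replicate number term was called for 3 genes, and for 0 with a filter of 5 CPM in 2 libraries. The median log2 fold change of all tested genes was 0.010 with no filter and -0.0014 with the 5 CPM filter. The cause of these differences was not tested.

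With the replicate number as a block, 0 genes and 0 members were called, and the effector median was -0.07. The deviations of same-numbered libraries from their group means correlated at 0.25 over genes, and 2 pairs cannot show pairing. The block changed no other call.

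Leaving out each library in turn gave medians of -0.074 to 0.094 for chaperones, -0.043 to 0.042 for degradation genes, -0.047 to 0.088 for sensors and factors, -0.38 to 0.082 for effectors, -0.088 to 0.20 for one-carbon enzymes and -0.020 to 0.029 for all tested genes. Single genes took both signs over these ranges: Hspa5 -0.19 to 0.17, Hsp90b1 -0.24 to 0.32, Calr -0.064 to 0.11, Canx -0.28 to 0.18, Pdia3 -0.31 to 0.21, Pdia4 -0.085 to 0.059, Pdia6 -0.057 to 0.23, Hyou1 -0.073 to 0.11, Sdf2l1 -0.33 to 0.58, Dnajb9 -0.44 to 0.052, Dnajb11 -0.19 to 0.019, Dnajc3 -0.054 to 0.22, Creld2 -0.28 to 0.33, Syvn1 -0.050 to 0.13, Edem1 -0.14 to 0.13, Eif2ak3 -0.029 to 0.15, Atf5 -0.65 to 0.078, Ddit3 -0.37 to 0.0023, Trib3 -0.69 to 0.082, Chac1 -0.32 to 0.28, Sesn2 -0.17 to 0.041, Ddit4 -0.39 to 0.57, Nupr1 -0.64 to 0.021, Psat1 -0.089 to 0.34, Phgdh -0.11 to 0.031, Psph -0.038 to 0.11, Aldh18a1 -0.12 to 0.10, Pycr1 -0.29 to 0.0023 and Shmt2 -0.088 to 0.33. With the length and GC trend removed, chosen after seeing the data, Hspa5 was at 0.013, Pdia4 at 0.036 and Hyou1 at -0.031, and with the 5 CPM filter Edem1 was at 0.0031, each with its sign turned.

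Depth was no limit for single members, the lowest of which, Creld2, had at least 458 counts per library (95% Poisson interval 417 to 502, counting error alone). The number of animals limits what can be seen.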
